A study of Rattus norvegicus with 4 samples.

Results

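The genes described here encode the lysosome's digestive enzymes, its membrane proteins, its transcriptional regulator Tfeb and the proton pump that acidifies it. They were measured in NR8383 cells, a macrophage line established from rat lung lavage, after 4 h with carboxyl-functionalized carbon nanotubes (NRCWE042) at 6.8 cm2/cm2. The members were the 38 genes of a list together with every rat gene whose RefSeq symbol starts with Atp6v or Atp6ap, each found through the accession of its array probe. Of the listed genes 37 had such a probe, Naglu being the exception. Of 27 protein-coding genes with the pump prefixes 24 had one, without Atp6v0a4, Atp6v1g1l1 and Atp6v1fnbl. This gave 61 measured members of 16581 measured genes. All 4 samples used here are cultures of the same exposed group (cells after 20 passages, grown for 48 h after seeding, 1 array each, called replicates 1 to 4), and unexposed cultures were not analysed here. No value below is therefore an effect of the nanotubes. The data give which lysosomal genes the exposed macrophages expressed and how far the cultures differed.

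Lysosomes break down what a macrophage takes up. Soluble hydrolases reach them through the mannose 6-phosphate route and work at acid pH, which the vacuolar ATPase (V-ATPase) maintains: its cytosolic V1 sector splits ATP and its membrane V0 sector carries protons inward. Many of these genes share a regulator, the transcription factor TFEB, which recognises an E-box with the core CACGTG in their promoters. In alveolar macrophages the lysosome is where inhaled particles that have been engulfed end up.

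Most members were expressed in the exposed cells. A gene counts as detected here if the scanner software put 1 of its probes or more well above background on all 4 arrays. This held for 52 of the 61 measured members (85.2%), against 44.4% of all measured genes. By part, 34 of 37 listed genes and 18 of 24 pump genes were detected. The 9 others were the proteases Ctse and Ctsk, the sulfatase Arsb, the pump isoforms Atp6v1b1, Atp6v1c2, Atp6v1e2, Atp6v1g2 and Atp6v1g3, and the pump-associated gene Atp6ap1l. The last was well above background on replicate 1 alone, and the other 8 were so on no array. A transcript missed by its probe may still have been present.

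Levels are given as log2 of the software's processed signal minus the 75th percentile of the same array, so 0 is the 75th percentile of all sample probes. Probes differ in affinity, so a level places a gene within its own probe's scale and gives no order between genes. Differences between arrays in the levels below hold at this scaling, and other scalings are treated further on. The array of replicate 4 was the dimmest, with a 75th percentile of 49.0 against 128, 131 and 98.5 signal units on replicates 1 to 3. Its negative controls therefore lay higher on this scale, at a median of -3.42, against -4.63, -4.53 and -4.24. On replicate 3 an area holding 3.73% of the spots read low, as did 1.28% of the spots on replicate 4. Among macrophage markers 12 of 14 were detected, without Marco and Adgre1. Detected markers of other cells were 1 of 8 for alveolar epithelium (Napsa, itself a lysosomal protease gene), 1 of 6 for neutrophils, 1 of 5 for fibroblasts and 2 of 5 for lymphocytes. The 4 surfactant genes measured were not detected on any array.

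The promoters of these genes held the TFEB-type E-box in part. RefSeq's promoter table for the GRCr8 assembly, which gives 300 bases per gene start (250 before and 50 after), matched 50 of the 61 measured members. The letters CACGTG, which read the same on both strands, occurred in 10 of the 43 promoters of detected members (23.3%). For the listed genes measured the count was 8 of 32 (25.0%), and for the pump genes 2 of 19 (10.5%). The letters occurred in 9.86% of the promoters of all detected genes and 6.42% of the 33469 promoters in the table. With 1 more base, as TCACGTG on either strand, the shares were 18.6%, 5.91% and 3.20%. The second motif contains the first, so the counts overlap. The 4 promoters with more than 1 match are shown because they carry the motif most often among the members; the 250 bases before each start are printed 5′ to 3′ on the gene's strand, with CACGTG in capitals.
Lamp1 (chr16:83075064-83075313, minus strand): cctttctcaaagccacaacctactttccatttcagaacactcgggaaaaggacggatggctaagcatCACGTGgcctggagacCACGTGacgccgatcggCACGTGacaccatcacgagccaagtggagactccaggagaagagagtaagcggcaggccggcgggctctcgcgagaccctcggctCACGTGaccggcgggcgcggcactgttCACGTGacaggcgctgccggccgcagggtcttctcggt
Ctsd (chr1:206968822-206969071, minus strand): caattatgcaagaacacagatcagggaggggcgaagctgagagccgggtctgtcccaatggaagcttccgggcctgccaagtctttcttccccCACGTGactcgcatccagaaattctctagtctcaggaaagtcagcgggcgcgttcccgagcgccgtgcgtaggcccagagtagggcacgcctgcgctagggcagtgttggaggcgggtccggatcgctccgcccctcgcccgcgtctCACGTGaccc
Cln3 (chr1:190597930-190598179, minus strand): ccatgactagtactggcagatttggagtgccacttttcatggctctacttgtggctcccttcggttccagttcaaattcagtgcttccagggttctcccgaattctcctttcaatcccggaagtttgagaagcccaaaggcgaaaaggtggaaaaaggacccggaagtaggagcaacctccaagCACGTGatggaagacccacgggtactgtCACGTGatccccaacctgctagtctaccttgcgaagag
Mcoln1 (chr12:6358008-6358257, plus strand): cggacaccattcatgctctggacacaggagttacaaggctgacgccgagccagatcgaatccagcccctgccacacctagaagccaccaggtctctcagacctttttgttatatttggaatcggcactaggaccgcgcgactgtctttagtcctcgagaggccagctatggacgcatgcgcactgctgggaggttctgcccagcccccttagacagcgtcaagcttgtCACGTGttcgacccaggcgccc
Counted from the gene start, Lamp1 had 5 matches, at -183, -167, -150, -65 and -38. Ctsd had 2, at -157 and -10, and Cln3 had 2, at -66 and -38. Mcoln1 had 1 at -22 and another at 5, just after the start and outside the printed stretch. Single matches were found for Atp6v0d1, Atp6v0e1, Cd63, Ctsf, Gaa and Glb1. The 11 members without an entry were Psap, Ctsb, Hexa, Ppt1, Asah1, Arsb, Atp6v0d2, Atp6v0e2, Atp6v1b2, Atp6v1c1 and Atp6v1h. A match describes these letters only, and binding was not measured.

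Among the proteases, which cut proteins inside the lysosome, 11 of 13 were detected. Ctsb, a cysteine protease, read 9.33, 9.28, 9.39 and 9.80 on replicates 1 to 4. The aspartic protease Ctsd read 9.04, 8.98, 9.33 and 9.54. The serine carboxypeptidase Ctsa, which also protects other lysosomal enzymes, read 7.08, 7.07, 7.29 and 7.57. At this scaling all 3 had their highest reading on replicate 4, which other scalings did not keep for every gene. Their mean and SD over the 4 arrays were 9.45 ± 0.24, 9.22 ± 0.26 and 7.25 ± 0.24. A different order was seen in other cathepsins. Ctss, an elastin-cutting protease that also trims the MHC class II invariant chain, read 5.81, 5.81, 5.36 and 5.15 (5.53 ± 0.33, SD, n = 4). Ctsl, its close relative, read 2.10, 2.37, 1.92 and 1.51 (1.98 ± 0.36). Both were highest on replicates 1 and 2 and lowest on replicate 4, as was the aminopeptidase Ctsh, with 2.46, 2.54, 2.25 and 2.05.

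Ctsz, a carboxypeptidase, hardly varied at this scaling, with 6.38, 6.28, 6.33 and 6.37 (SD 0.048). Ctsc, which activates granule proteases, read 4.56, 4.66, 4.45 and 4.34. Ctsf read 4.27, 4.17, 4.39 and 4.65. At this scaling the cultures thus differed by at most 0.47 log2 units (1 unit is a doubling) for these 3 genes. Legumain, encoded by Lgmn, cuts after asparagine and lay at 3.84 ± 0.09. The tripeptidyl peptidase gene Tpp1 lay at 3.07 ± 0.35. Both proteases not detected are known from other cells, Ctsk from osteoclasts and Ctse from gastric and some immune cells. Ctse read -4.43, -4.33, -4.23 and -3.39, close to the array's median negative control on each array. Ctsk read -3.54, -3.32, -3.07 and -3.46, above the median negative control on replicates 1 to 3 but not well above background on any.

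All 7 measured sugar hydrolases were detected. The acid alpha-glucosidase gene Gaa, whose product degrades glycogen, read 2.75, 2.53, 3.32 and 3.52 (3.03 ± 0.46), with replicates 3 and 4 above replicates 1 and 2. The alpha-mannosidase gene Man2b1 (4.97 ± 0.32) and the sialidase gene Neu1 (2.39 ± 0.27) had the same 2 arrays highest. Hexa, for a subunit of beta-hexosaminidase, lay at 4.49 ± 0.21, Gusb, for beta-glucuronidase, at 1.36 ± 0.17, and the probe named for the lysozyme gene Lyz2 at 9.82 ± 0.17. The beta-galactosidase gene Glb1 read 3.15, 3.14, 2.33 and 3.16. Its low reading on replicate 3 came from 1 of its 2 spots, which lies in the area of low signal. Without that area Glb1 read 3.19 there, and its SD fell from 0.41 to 0.023.

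All 6 genes of lipid handling were detected. Psap, the precursor of the saposins that present sphingolipids to their hydrolases, read 6.77, 6.65, 7.15 and 7.30 (6.97 ± 0.31). The acid ceramidase gene Asah1 had the opposite order, with 2.72, 2.97, 2.49 and 2.11 (2.57 ± 0.36). Npc1, for the membrane protein that exports cholesterol from the lysosome, read 3.52, 3.54, 3.52 and 3.64. It was among the 4 least variable detected members at this scaling (SD 0.057). Its soluble partner Npc2 lay at 5.58 ± 0.20, the acid lipase gene Lipa at 5.69 ± 0.10 and the thioesterase gene Ppt1 at 6.18 ± 0.22.

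The sulfatase and phosphatase genes were split. Acp5, for the tartrate-resistant acid phosphatase of macrophages and osteoclasts, read 0.26, 0.10, 0.91 and 1.26 (0.63 ± 0.54). Acp2, for the lysosomal acid phosphatase, read 4.20, 4.28, 3.44 and 4.43, and its only spot lies in the low area of replicate 3. Over the other 3 arrays Acp2 lay at 4.31 ± 0.11 (SD, n = 3). Arsb, which removes sulfate from dermatan sulfate, was not detected, with -2.66, -4.50, -4.31 and -3.54. Acp5, Ctsk and Atp6v0d2 are members that osteoclasts also use. Of them Ctsk was not detected, and in the osteoclast marker list 3 of 5 measured genes were (Calcr, Nfatc1 and Mmp9), with Tnfrsf11a on no array and Itgb3 on 2.

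All 7 membrane protein genes were detected. Lamp1, for a main glycoprotein of the lysosomal membrane, read 6.20, 6.17, 6.50 and 6.57 (6.36 ± 0.20). Lamp2, which is also needed for chaperone-mediated autophagy, read 5.57, 5.58, 5.54 and 5.71 (5.60 ± 0.08). The tetraspanin gene Cd63 read 8.18, 8.25, 8.33 and 8.32 (8.27 ± 0.07). At this scaling, and by the brightest probe of each, these 3 genes differed between cultures by 0.40 log2 units or less. A dimmer Lamp2 probe read 2.64, 2.74, 2.55 and 2.33. The calcium channel gene Mcoln1 read 3.18, 3.07, 3.83 and 4.06 (3.54 ± 0.485), and Cln3, mutated in a neuronal storage disease, read 0.12, -0.21, 0.57 and 1.03 (0.38 ± 0.54). Laptm5, of blood cell lysosomes, read 8.89, 8.91, 9.49 and 9.74 (9.26 ± 0.43). On replicate 3, 1 of its 10 spots lies in the low area, and 9 of the 10 were used for the reading of 9.49. With the low area left out Laptm5 read 9.42 there. Leaving the area out also rescales the arrays, so this difference cannot be ascribed to that spot. On replicate 4, where no Laptm5 spot lies in the area, the reading became 9.73. In Mcoln1, Cln3 and Laptm5 the readings of replicates 3 and 4 lay above both others. Scarb2, the receptor that delivers glucocerebrosidase, lay at 2.20 ± 0.12. The regulator gene Tfeb itself read 1.36, 0.94, 1.91 and 2.16 (1.59 ± 0.55), the widest SD of the detected members at this scaling.

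**Figure D1:**
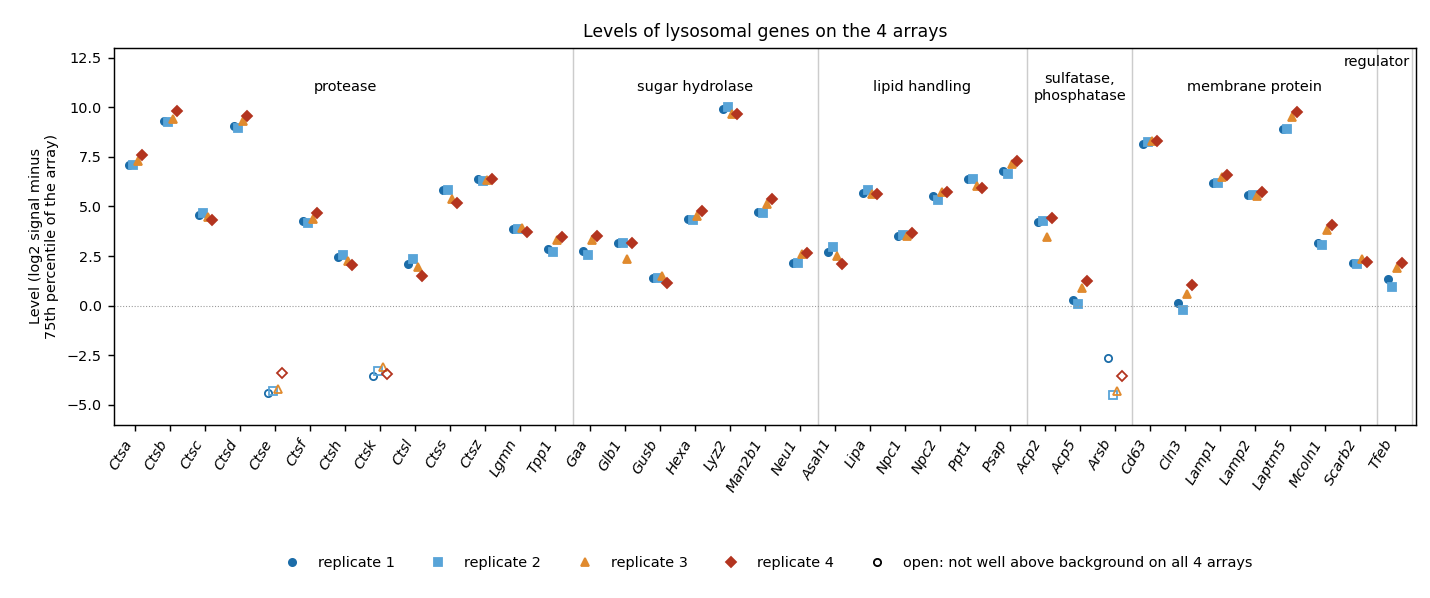
Level of each listed lysosomal gene (horizontal axis, grouped by role) on the 4 arrays (vertical axis, log2 signal minus the array's 75th percentile; 1 symbol per replicate). Filled symbols are genes well above background on all 4 arrays; the open symbols of Ctse, Ctsk and Arsb lie between -4.50 and -2.66.

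The proton pump was represented by a detected gene for each of the 13 subunits that had a measured gene, 8 in the V1 sector and 5 in V0. The exposed cells had 1 detected gene for each V1 subunit. For the 4 V1 subunits with several measured genes, it was the widely expressed isoform. Atp6v1b2, for the B subunit that forms the catalytic ring with A, read 7.05, 7.12, 7.29 and 7.06. Atp6v1b1, known from kidney and inner ear, read -4.72, -4.61, -4.30 and -3.51, close to the negative controls. The C subunit gene Atp6v1c1 read 4.71, 4.66, 4.25 and 4.22, while Atp6v1c2 read -4.68, -4.57, -4.26 and -3.53.

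In the stalk subunit E, Atp6v1e1 read 2.72, 2.75, 2.69 and 2.66, the smallest SD of the detected members at this scaling (0.040). The testis isoform Atp6v1e2 read -3.53, -4.05, -3.80 and -3.49. For subunit G, Atp6v1g1 read 6.93, 6.99, 6.79 and 6.76, beside the brain isoform Atp6v1g2 at -4.54, -4.43, -3.78 and -3.41. The kidney isoform Atp6v1g3 read -4.56, -4.19, -4.37 and -2.66. In these 4 subunits the detected isoform and the others thus lay on opposite sides of the background mark on every array. The catalytic subunit gene Atp6v1a lay at 3.96 ± 0.34, Atp6v1d at 3.59 ± 0.38, Atp6v1f at 6.86 ± 0.23 and the regulatory subunit gene Atp6v1h at 4.43 ± 0.25.

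In the V0 sector all 8 measured genes were detected, so that both measured isoforms of the a, d and e subunits were present. Atp6v0d1, the general d subunit gene, lay at 5.36 ± 0.11, and Atp6v0d2, the isoform of osteoclasts and some macrophages, at 4.84 ± 0.16. For subunit e, Atp6v0e1 lay at 6.80 ± 0.23. Its relative Atp6v0e2 read -0.80, -1.22, -0.95 and -0.68, near the lower limit: on replicate 4 only 1% of the spots marked well above background lay below -1.02. For subunit a, which steers the pump to its membrane, Atp6v0a1 lay at 1.46 ± 0.37 and Atp6v0a2 at -0.066 ± 0.075. Of the 2 Atp6v0a2 probes 1 was detected on all arrays and the other on none. The lysosomal a3 isoform is encoded by Tcirg1, which the symbol rule leaves out; it was detected and read 6.46, 6.38, 7.22 and 7.45. The proteolipid genes of the rotating ring, Atp6v0b and Atp6v0c, lay at 7.08 ± 0.43 and 6.92 ± 0.42. Atp6ap1l read -1.49, -2.37, -2.60 and -1.64. The accessory genes Atp6ap1 and Atp6ap2, which assist assembly, lay at 5.84 ± 0.35 and 2.99 ± 0.22. RefSeq lists 5 pseudogenes of Atp6v0c, Atp6v1a, Atp6v1e1 and Atp6v1g1; how far their transcripts, if any, bind the probes was not tested.

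**Figure D2:**
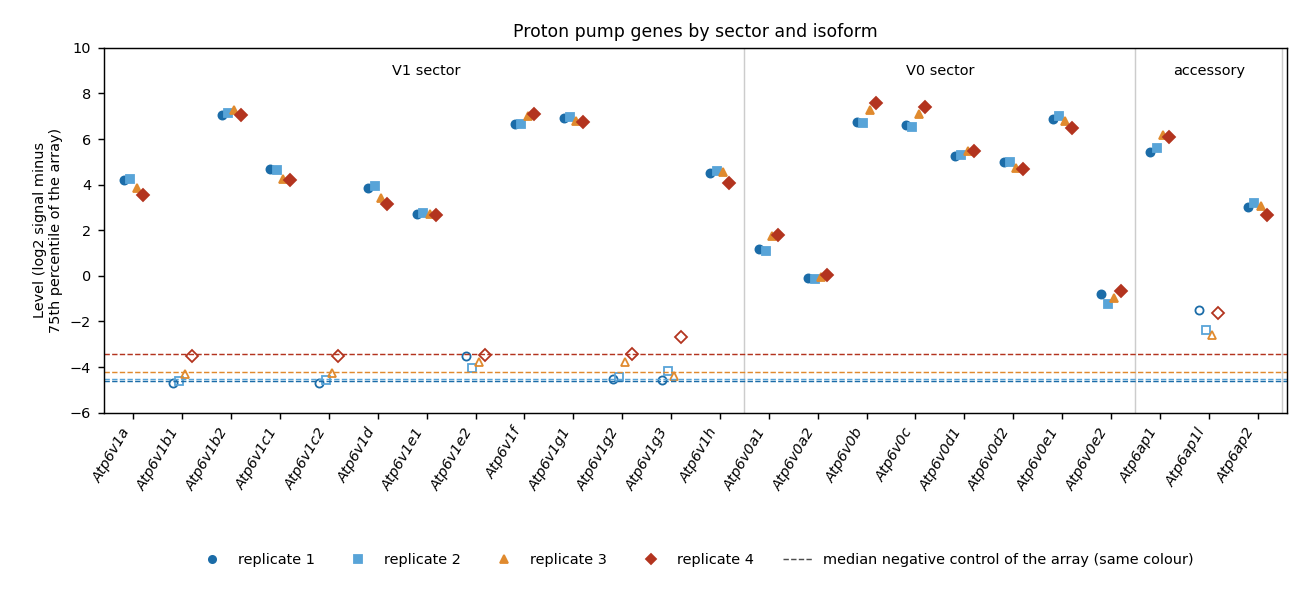
Level of each proton pump gene (horizontal axis, by V1 sector, V0 sector and accessory genes) on the 4 arrays (vertical axis, log2 signal minus the array's 75th percentile; filled, well above background on all 4 arrays; open, not). Dashed lines mark the median negative control of each array, at -4.63, -4.53, -4.24 and -3.42; the open symbols of the 5 undetected V1 isoforms lie between -4.72 and -2.66, while the lowest reading of a V0 gene is -1.22.

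The spread between cultures depended on how the arrays were scaled. Over the 52 detected members the median SD was 0.235 log2 units, against 0.25 over all 7364 detected genes. With normexp background correction the members stood at 0.27 against 0.23, and with scaling on the spiked-in control RNA at 0.55 against 0.54, so no order between members and all genes was kept. Tfeb, Acp5 and Cln3 (3 of 52 members) exceeded an SD of 0.5, as did 11.6% of all detected genes, and the difference was not tested. With normexp 7 members did (7.01% of all genes), none of these 3 among them, and with spike-in scaling 29 (54.9%). At the reported scaling the next were Mcoln1, Gaa and Acp2, the last through the low area. At the other end, 8 members had an SD below 0.1 at this scaling, the 4 smallest being Atp6v1e1, Ctsz, Npc1 and Cd63. All detected genes reached as low: the 10th percentile of their SD was 0.086, against 0.079 for the detected members.

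Several members had probes printed in 10 copies, which gives the measurement error within an array. For 8 such probes of 7 genes, the SD between the copies on an array ran from 0.023 to 0.16. For each of the 8 probes the SD between the arrays was above that probe's own largest within-array SD. Laptm5 had 0.43 between arrays against 0.032 to 0.055 within them, and Man2b1 0.32 against 0.0375 to 0.067. For Ctsa the values were 0.24 against 0.028 to 0.073, and for Cd63 0.070 against 0.023 to 0.051. Copies marked as outliers by the software had been left out, which narrows the within-array SD. The SD between arrays holds every difference between separate cultures and their processing, and depends on the scaling. Whether these differences arose in culture, RNA extraction or labelling cannot be told apart, since each array is 1 culture.

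**Figure D3:**
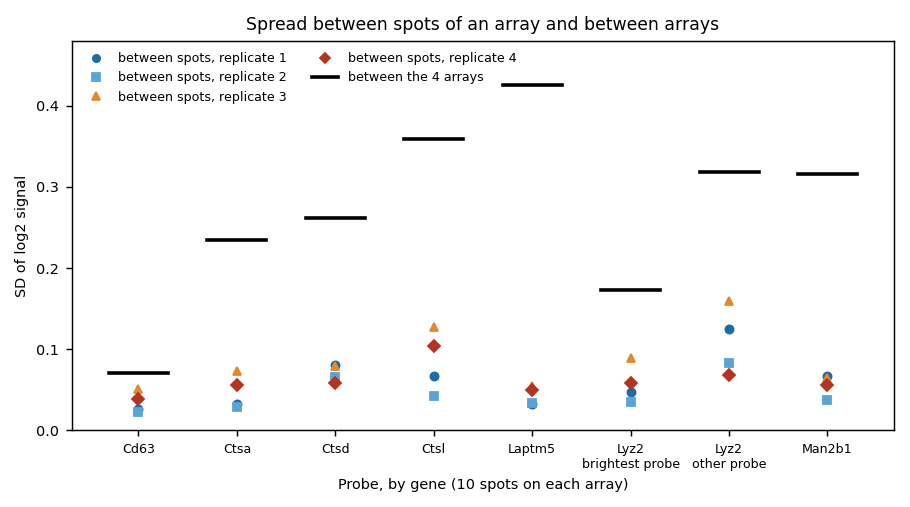
SD of log2 signal for the 8 member probes printed in 10 copies (horizontal axis): between the copies on each array (symbols, by replicate) and between the 4 arrays (black bars, SD of the array means). For each probe the bar lies above all 4 symbols, narrowly for Cd63 (0.070 against at most 0.051) and widely for Laptm5 (0.43 against at most 0.055).

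The members did not vary as 1 block across the cultures. Set against its own mean over the 4 arrays, a member lay higher on replicate 4 in 31 of 52 cases, a share of 59.6%, and 59.6% of all detected genes did. On replicates 1 to 3 the counts were 22, 21 and 30 of 52, beside 38.7%, 41.9% and 61.9% of all detected genes. As a whole the members thus lay near the background. The median member deviated by -0.04, -0.07, 0.05 and 0.11, and the median detected gene by -0.07, -0.07, 0.06 and 0.10. Within this, 24 members lay below their mean on replicates 1 and 2 and above it on replicates 3 and 4 (46.2%, against 44.9% of detected genes). The opposite order held for 14 (26.9%, against 23.8%), and 14 had neither.

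By role and at this scaling, all 7 membrane protein genes lay below their own mean on replicates 1 and 2. Lamp2 did so by its brighter probe only, at -0.027 and -0.021. Of the 7 genes, 6 lay above their mean on replicate 3 and 6 on replicate 4. The V1 genes tended the other way: 6 of 8 lay above their mean on replicate 1 and 6 on replicate 2, but 1 of 8 (Atp6v1f) on replicate 4. Of the 8 V0 genes 3, 2, 5 and 6 lay above their mean on replicates 1 to 4. The proteolipid gene Atp6v0c read 6.62, 6.53, 7.11 and 7.41, and the catalytic subunit gene Atp6v1a read 4.20, 4.26, 3.87 and 3.53. Over all 64 pairs of a detected V0 and a detected V1 gene, the log2 difference between the 2 genes was higher on replicate 4 than on replicate 1 in 53 and lower in 11, with a median change of 0.55. The changes ran from -0.85 (Atp6v0e1 against Atp6v1f) to 1.56 (Atp6v0b against Atp6v1d), so the genes of a sector did not vary alike. The pairs share genes and are not independent, this comparison was made after the values were seen, and no test was made. With normexp and with quantile normalization 52 of 64 were higher. For Atp6v0c against Atp6v1a the change was 1.46 with the brighter Atp6v1a probe, whose dimmer probe varied less.

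**Figure D4:**
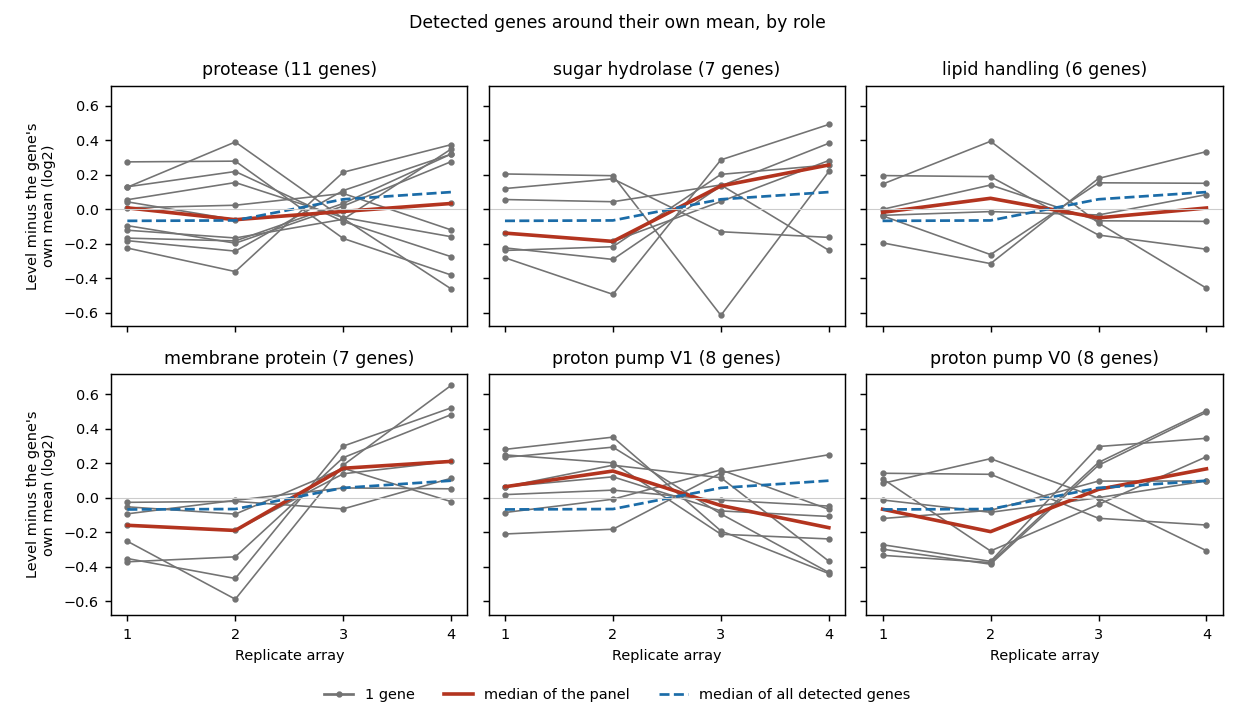
Deviation of each reading from the mean of its gene over the 4 arrays (vertical axis, log2 units) for each detected gene in 6 roles, by replicate array (horizontal axis); a grey line joins the 4 readings of 1 gene, and replicates have no order. The red line is the median of the panel and the dashed blue line that of all detected genes (-0.07, -0.07, 0.06 and 0.10): V1 pump genes lie mostly below it on replicate 4 and membrane protein genes mostly above (5 of 7, but 3 of 7 with normexp). The sugar hydrolase at -0.62 on replicate 3 is Glb1.

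These directions depend on the scaling between arrays for the members as a whole. When arrays were centred on the spiked-in control RNA instead, the median detected gene deviated by 0.32, 0.47, -0.05 and -0.71, and the median member by 0.35, 0.47, -0.06 and -0.71. Set against the median detected gene of the same array, a value that a constant shift of an array cannot alter, 1 of 8 V1 genes lay higher on replicate 4, as with quantile normalization, and 0 of 8 with normexp. Of the 8 V0 genes (median 0.07, against -0.27 for V1) 4 did, 5 with quantile normalization and 5 with normexp. For the membrane protein genes 5 of 7 did, 4 with quantile normalization and 3 with normexp. On replicates 1 and 2, 2 and 2 of these 7 lay higher than the median detected gene. The counts there were 3 and 2 with quantile normalization, and 4 and 2 with normexp. The dimness of replicate 4 goes along with these readings, and its part in them was not tested.

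The 10 detected members with CACGTG in their promoter had a median deviation of -0.14, -0.19, 0.10 and 0.25 on replicates 1 to 4, and 9 of them lay above their own mean on replicate 4. Set against the median detected gene, 7 of the 10 lay higher there, and 3 (Cln3, Gaa and Mcoln1) with normexp. Glb1 is among the 7 at the reported setting and lay lower without the area of low signal. The 32 members with a promoter entry and no match had -0.02, -0.04, 0.05 and 0.09, and 18 of them lay above. Over all detected genes, 634 with the motif had -0.08, -0.07, 0.06 and 0.12, and 380 of them (59.9%) lay above. The 5552 without it had -0.07, -0.07, 0.06 and 0.10, and 3300 (59.4%) lay above. These medians are a description, and no difference between them was tested. Of the genes whose promoters are printed above, Cln3 spanned 1.24 log2 units between its lowest and highest array at the reported scaling, Mcoln1 0.99, Ctsd 0.56 and Lamp1 0.40.

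For members with several probes, the probes did not always run alike. The 2 probes of Atp6v0c ran together, with deviations of -0.30, -0.39, 0.19 and 0.50 for the brighter and -0.32, -0.35, 0.26 and 0.41 for the other. The 2 probes of Atp6v1a were both lowest on replicate 4, but the dimmer one varied less (0.47, 0.40, 0.33 and 0.28). For Lyz2, the brightest probe read 9.94, 9.99, 9.68 and 9.65 and the dimmest of 3 read 8.18, 8.26, 7.56 and 7.53. The remaining Lyz2 probe went the other way, with 9.36, 9.24, 9.40 and 9.95, 1 of its 10 spots lying in the low area of replicates 3 and 4. The level and the direction given for Lyz2 therefore rest on the probe chosen. RefSeq lists another rat lysozyme gene, Lyc2, with Lyz2 among its synonyms, and which lysozyme transcript each probe reads was not tested. In Lamp2 the probes read 5.71 and 2.33 on replicate 4, the highest reading of the brighter and the lowest of the dimmer. The dimmer Lamp2 probe lay above its own mean on replicates 1 and 2, by 0.075 and 0.17. The dimmer probe of Atp6ap2 read 3.19, 3.50, 0.39 and 1.99, and its spot lies in the low areas of replicates 3 and 4.

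**Figure D5:**
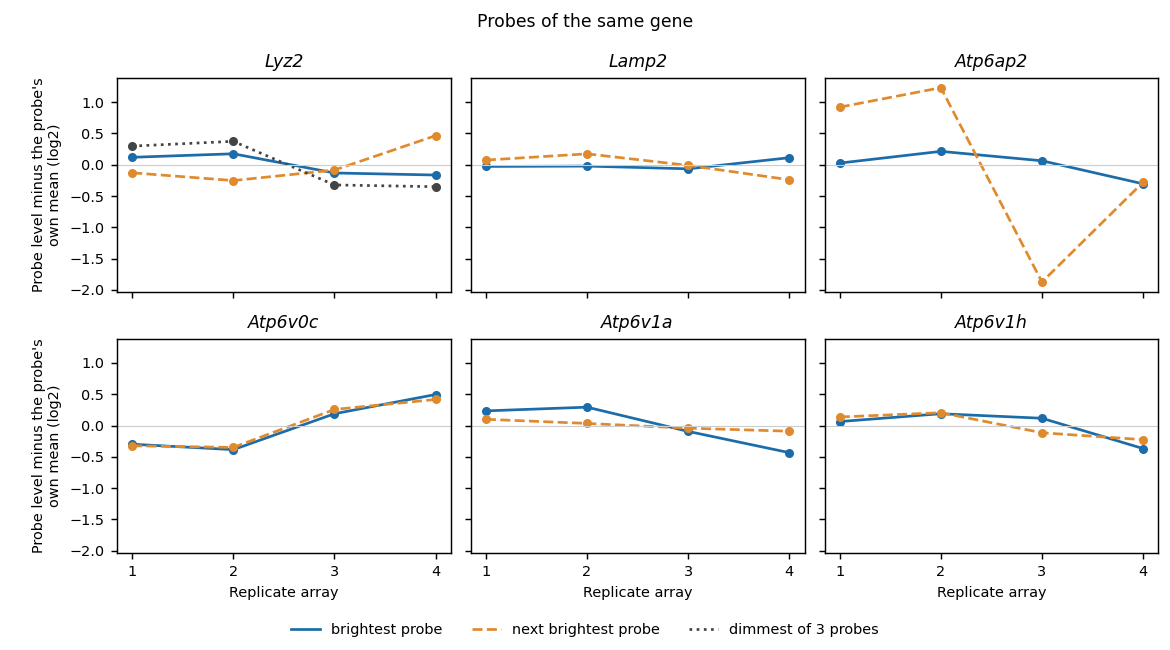
Probe level minus the probe's own mean over the 4 arrays (vertical axis, log2) for 6 members with 2 or 3 detected probes, by replicate array (horizontal axis); lines join the readings of 1 probe, and replicates have no order. The Atp6v0c probes run together, a Lyz2 probe runs against the other two, and the dimmer Atp6ap2 probe is lowest on replicate 3, where its spot lies in the area of low signal.

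Most other genes of the pathway were detected too. A list of further hydrolases, sorting receptors, transporters, regulators and inhibitors had 49 measured genes. Of these 44 were detected, against 44.4% of all measured genes. Detected genes included M6pr and Igf2r, the mannose 6-phosphate receptors, the TFEB relatives Tfe3 and Mitf, and the cathepsin inhibitors Cst3 (7.20 ± 0.23) and Cstb (8.83 ± 0.016), examples chosen after their values were seen. Not detected on all arrays were Galc (1 array), the keratan sulfate sulfatase gene Galns (0), the lymphocyte protease gene Ctsw (0), the cystine exporter gene Ctns (3) and the amino acid sensor gene Slc38a9 (2). The sphingomyelinase gene Smpd1 had the largest SD of the 44 (5.41 ± 0.64), with 4.94, 4.79, 5.80 and 6.09. Rraga, for a GTPase that brings mTORC1 to the lysosome, read 1.15, 1.33, 0.59 and 0.06. Lamtor3, of the complex that anchors this GTPase, read 3.57, 3.68, 2.48 and 2.88, with its spot in the low area of replicate 3. Vps18, for a subunit of the tethering complex, read 1.79, 1.76, 2.51 and 2.85. The median SD of the 44 genes was 0.23, against 0.25 for all detected genes. An SD of 0.5 was exceeded by 5 of the 44, and by 11.6% of all detected genes. On replicate 4 and at the reported scaling, 32 of the 44 lay above their own mean (72.7%), against 59.6% of all detected genes. Directions on this array depend on the scaling, and the difference was not tested.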

How the data were processed

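RNA of 4 exposed cultures, all of 1 group, was read on 1-colour Agilent arrays. The deposited values are spot intensities from Feature Extraction 11.0.1.1, per the file headers and the submitters' processing notes; the processed signal is background-corrected within each array and not normalized between arrays, per the file headers. The deposited detection marks (0 or 1 per spot) are the software's. Arrays give no read depth, and their number limits the precision.

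From these, log2 was taken, spots marked as non-uniform or population outliers were left out, copies of a probe were averaged and the 75th percentile of sample probes on that array was then subtracted. Probes were named through RefSeq accessions (21109 of 45598 matched); coordinates are those of the promoter table alone. A gene took its brightest probe, and was detected when over 50% of the spots of a probe were well above background on all 4 arrays. The low-signal area was where windows of 21 by 21 spots had a median under -0.5 log2 against the other arrays. With 1 group no test between groups was made, and Dixon's critical value for 4 values was used to flag single readings. All members were accounted for, and array-by-array values were given for the 6 largest and 4 smallest SDs, cathepsins, pump isoform families with a gene not detected, members in the low area and Tfeb, Lamp1, Lamp2, Ctsd, Ctsb and Psap. Array values of other genes, and the gene pairs, were chosen after their values were seen. The members and lists were chosen with earlier results of these data known. Alternatives were normexp (limma 3.58.1, R 4.3.3, offset 50), quantile and spike-in scaling, mean of probes, a looser detection mark, 3 of 4 arrays, marked spots kept, the low area left out, and each replicate left out. Level functions were tested on simulated data. Python 3.11.15, numpy 2.4.6 and pandas 2.3.3 were used.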

Additional observations from a re-analysis of the deposited data

Results flagged for a closer look

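The level of Glb1 stood apart on 1 array: the gap between replicate 3 (2.33) and the nearest other reading (3.14) was 0.971 of the whole range, above Dixon's critical value for 4 values. On that array 1 of its 2 spots lies in the area of low signal, and without that area the reading was 3.19. The same look was taken at 57 detected genes (the 52 members and 5 further lysosomal genes), where chance marks about 1 in 20. Over all detected genes 3.18% were marked. No explanation was tested.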

How the results depend on the processing

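No paired analysis was possible because the samples form 1 group. The count of 52 detected members ranged from 51 (every probe required, which loses Atp6v0a2) to 53 (looser mark, which adds Atp6ap1l) over all alternatives, and was 52 without any single replicate. The pump count ranged from 17 to 19. The median SD of 0.235 was 0.19 to 0.27 with a replicate left out, 0.27 with normexp (0.23 for all detected genes) and 0.55 with spike-in scaling (0.54 for all detected genes). The small median shifts of the members on replicates 1 to 4 changed sign with the scaling. With spike-in scaling they were 0.35, 0.47, -0.058 and -0.71. With normexp they were 0.035, 0.085, 0.12 and -0.23, the sign differing on replicates 1, 2 and 4. With quantile normalization they were 0.018 and 0.016 on replicates 1 and 2, against -0.04 and -0.07. The cause was not tested. Set against the median detected gene of the array, the sign on replicate 4 differed from the reported one for 9 of 52 members with normexp and 2 with quantile normalization; spike-in scaling cannot change it. Mean levels of single members moved by over 1 SD for 48 of 52 with normexp, for 5 with the mean of probes, and for 1 (Atp6ap2) without the low area. In that last case the brightest-probe rule took the other Atp6ap2 probe, which then had readings on replicates 1 and 2 only. The reported Atp6ap2 probe has no spot in the low area. On replicate 4, the dimmest array, 1% of the spots marked well above background lay below -1.02, so low levels there lie near the limit of detection.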
